A study of Homo sapiens with 5 samples.

Results

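The comparison of the H157 line carrying YAP together with the short isoform of TEAD4 (YAP/TEAD4-S) against the line carrying YAP alone (YAP) rests on 2 of the 5 RNA sequencing libraries of the series, chosen by their labels. H157, an established line of human lung carcinoma cells, is the parent of all 5 lines. The other 3 carried an empty vector (vector), YAP plus the full-length isoform of TEAD4 (YAP/TEAD4-FL), or by its label YAP plus RBM4, a splicing factor (labelled YAP/RBM4, although its RBM4 level, given below, goes against that label). The labels and the sequencing methods describe stable expression of the constructs, while the study's Results call the cells transfected. The labels name a pCDNA control, whereas the methods describe lentiviral pCDH vectors and puromycin. The protocol names polyadenylated RNA as well as a Total RNA kit with Ribo-Zero, so how RNA was selected is uncertain. Each line gave 1 library, with no replicate culture, so no test between the lines was possible and every difference is given by its size with a counting interval. The YAP library is a common baseline for every line that carries YAP with a further construct, and the other 3 libraries are given beside the 2 compared ones to show where a level lies.

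In the Hippo pathway, a kinase cascade phosphorylates the co-activator YAP and holds it out of the nucleus. Nuclear YAP has no DNA-binding domain and acts through the TEAD transcription factors, whose N-terminal domain binds DNA and whose C-terminal domain binds YAP. Their classic targets include CTGF, CYR61 and ANKRD1, and the pathway is known for its control of growth and organ size. A TEAD protein that binds YAP without binding DNA can compete for YAP, and the comparison asks how the transcriptome of YAP-expressing cells differs when such a form is added.

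TEAD4 lies at chr12:3068496-3149842 of hg19 on the plus strand, and the isoforms differ at their 5′ ends. The longer annotated transcript, ENST00000359864, has 13 exons with 1302 coding bases and begins translation in exon 3, at position 3103933, with a codon other than ATG. The shorter, ENST00000397122, has 11 exons with 915 coding bases, lacks the non-coding exon 1 and exon 3 (chr12:3103904-3104158, 255 bases) of the longer one and begins translation in exon 6, at position 3126597. Both reading frames end at position 3149641, and 129 codons of the longer form lie before the first codon of the shorter. The coding part of exon 3, chr12:3103933-3104158, is shown because it is the coding sequence that the short transcript leaves out. Capitals mark CGGCCGG, the letters of a binding motif that the study ascribes to RBM4, searched on the plus strand alone and found 1 time. Of 12811 annotated exons on chromosome 12 that are at least as long, 1.65% hold these letters in their first 226 bases. The start of the short form in exon 6, chr12:3126597-3126692, is shown with its first codon in capitals.
TEAD4 exon 3, coding part: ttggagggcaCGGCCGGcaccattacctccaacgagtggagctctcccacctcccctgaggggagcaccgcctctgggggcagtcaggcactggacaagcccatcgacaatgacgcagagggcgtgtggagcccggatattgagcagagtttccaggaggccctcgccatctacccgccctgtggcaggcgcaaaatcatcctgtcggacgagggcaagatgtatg
TEAD4 exon 6 from the short start: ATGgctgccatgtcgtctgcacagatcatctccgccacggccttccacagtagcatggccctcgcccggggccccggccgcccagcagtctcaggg
The deposited counts are per gene, so reads from the construct and from the endogenous gene, and from the isoforms, could not be told apart.

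Expected counts summed to 1399452 in the YAP library and 3015173 in the YAP/TEAD4-S library, and to between 2144934 and 2619399 in the other 3. Of 25343 genes, 8305 that averaged 10 CPM or more (counts scaled to a common library size) across the 5 libraries were compared, and their median count was 49.8 with YAP and 84.0 with YAP/TEAD4-S. The homeobox gene VAX1 alone held 0.713% of the counts with YAP and 14.1% with YAP/TEAD4-S, against 4.22% to 6.32% in the other 3 libraries. Counts per gene do not show whether these reads also fit other places in the genome, so the VAX1 share is that assigned by the authors' counting. Trimmed-mean (TMM) factors, which set scaling by the bulk of genes, were 1.02 for YAP and 0.816 for YAP/TEAD4-S, and levels below are TMM-scaled CPM unless stated. On library totals each such ratio to YAP is 0.8002 times the value given here, and the median log2 ratio of all compared genes is −0.35 in place of −0.03, a shift of −0.32. A ratio between 1 and 1.25 therefore lies below 1 on library totals. Epithelial keratins of carcinoma were present in both lines, with KRT8 at 456 with YAP and 439 with YAP/TEAD4-S and KRT18 at 157 with YAP and 151 with YAP/TEAD4-S, while EPCAM, KRT19 and NKX2-1 had no count in either. Of 14 lung carcinoma markers 7 passed the filter, and of 29 markers of other cell types 6 did. The latter 6 were PTPRC, CD68, LYZ, PECAM1, SFTPB and GFAP. No marker of either list that passed was called in either direction. PTPRC, a leukocyte phosphatase, was at 249 with YAP and 262 with YAP/TEAD4-S, and LYZ, lysozyme, was at 135 with YAP and 128 with YAP/TEAD4-S, whereas CD3E, VWF, DCN, SFTPC and ALB had no count in either library.

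TEAD4 was higher in the YAP/TEAD4-S line, as its label says. Its level was 61.3 with YAP/TEAD4-S against 3.504 with YAP, and 3.72 in the vector, 112 in the YAP/TEAD4-FL and 5.13 in the line labelled YAP/RBM4. Both lines with a TEAD4 construct stood apart from the other 3, and the short-isoform line had a lower TEAD4 level than the full-length line. Levels are not scaled for transcript length, and the coding part has 915 bases in the short form and 1302 in the longer. The levels of these 2 lines therefore do not directly compare numbers of RNA molecules. The YAP/TEAD4-S to YAP ratio was 17.5 (95% interval 7.34 to 54.7), on 5 counts with YAP and 151 with YAP/TEAD4-S, and relative to the full-length line it was 0.546 (0.445 to 0.667). YAP1, the gene of YAP, was at 72.8 with YAP/TEAD4-S against 100.2 with YAP, and 32.99 in the vector, 126 in the YAP/TEAD4-FL and 92.6 in the line labelled YAP/RBM4. Its YAP/TEAD4-S to YAP ratio was 0.726 (0.579 to 0.911), so YAP RNA was lower with the short isoform than with YAP alone, though still 2.21 (1.67 to 2.95) times the vector level, and on library totals the ratio to YAP was 0.581. The 2 lines thus differ in TEAD4-S and also in a somewhat lower YAP1 level, and the part of the latter was not tested. With 1 library per line, neither can be told apart from differences of culture or library. WWTR1, which encodes the YAP paralog TAZ, had a ratio of 0.834 (0.651 to 1.07). Among the TEAD paralogs the ratio was 1.18 (0.75 to 1.89) for TEAD1, 1.02 (0.531 to 2.01) for TEAD2 and 0.58 (0.291 to 1.16) for TEAD3, all including 1, on 16 to 30 counts with YAP. RBM4 was at 162 with YAP/TEAD4-S against 198 with YAP, and 149 in the vector, 184 in the YAP/TEAD4-FL and 149.7 in the line labelled YAP/RBM4, a YAP/TEAD4-S to YAP ratio of 0.816 (0.699 to 0.953). The library labelled YAP/RBM4 thus had RBM4 RNA near the vector level and below that of the YAP line, which goes against its label. The study states that transgene expression in its stable lines was checked by western blot, which measures protein and not RNA. Antisense or neighbouring genes overlap 11.1% of the YAP1 exon bases from the opposite strand and 23.8% of the RBM4 exon bases from the same one, which leaves the assignment of reads uncertain.

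**Figure D1:**
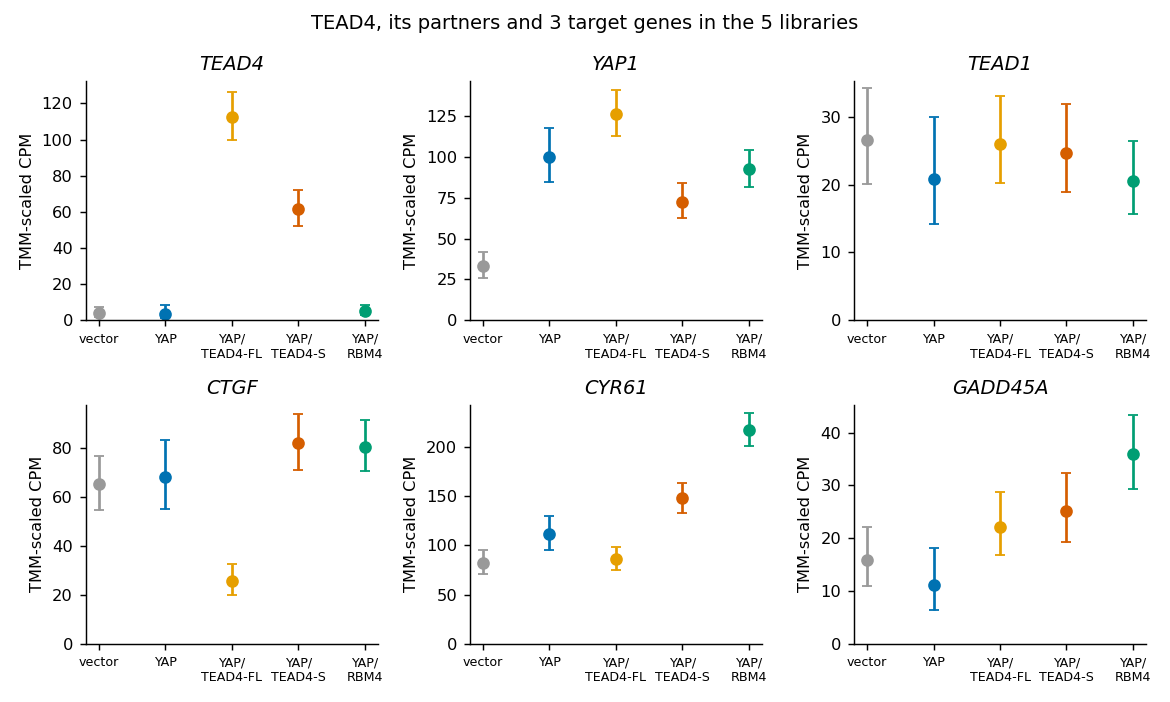
TMM-scaled CPM (vertical axes, from 0) of TEAD4, YAP1, TEAD1, CTGF, CYR61 and GADD45A in the 5 libraries, 1 point per library with its exact 95% Poisson interval, which covers counting error only. TEAD4 stands at 61.3 with YAP/TEAD4-S and 3.50 with YAP, while CTGF is lowest with YAP/TEAD4-FL at 25.5.

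A gene was called when its ratio, with 0.5 CPM added to both levels, was at least 2-fold and its exact 95% interval excluded 1. By this rule 191 genes (2.3% of those compared) were higher and 72 (0.867%) were lower with YAP/TEAD4-S than with YAP. On library totals 89 (1.07%) were higher and 365 (4.39%) lower, so the higher genes made up 72.6% of the calls with TMM factors and 19.6% on library totals. Which direction prevailed among the calls was therefore set by the scaling. Of the 191 higher genes, 72 differed at least 3-fold, 28 at least 10-fold and 9 at least 100-fold. The 7 higher genes with no count with YAP are counted in each of these classes, although their ratios are only bounded. Of the 72 lower genes, 17 differed at least 3-fold and 4 at least 10-fold. The 3 lower genes with no count with YAP/TEAD4-S are counted in both of these classes, although their ratios are only bounded. Of the 191 higher genes, 132 had under 20 counts with YAP and 56 had under 10, low numbers that the call itself favours. The YAP library was the lowest of all 5 for 164 of the 191 higher genes (85.9%), against 21.1% of all compared genes, and YAP/TEAD4-S was the highest of 5 for 126 (66.0%), against 16.2%. Of the 72 lower genes, YAP was the highest of 5 for 52 (72.2%, against 27.5% of all) and YAP/TEAD4-S the lowest for 56 (77.8%, against 17.1%). The call itself favours such positions, so these shares describe the genes and test nothing. Against each of the other 4 libraries by the same rule, 32 genes (0.385%) were higher with YAP/TEAD4-S and 7 (0.0843%) were lower.

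**Figure D2:**
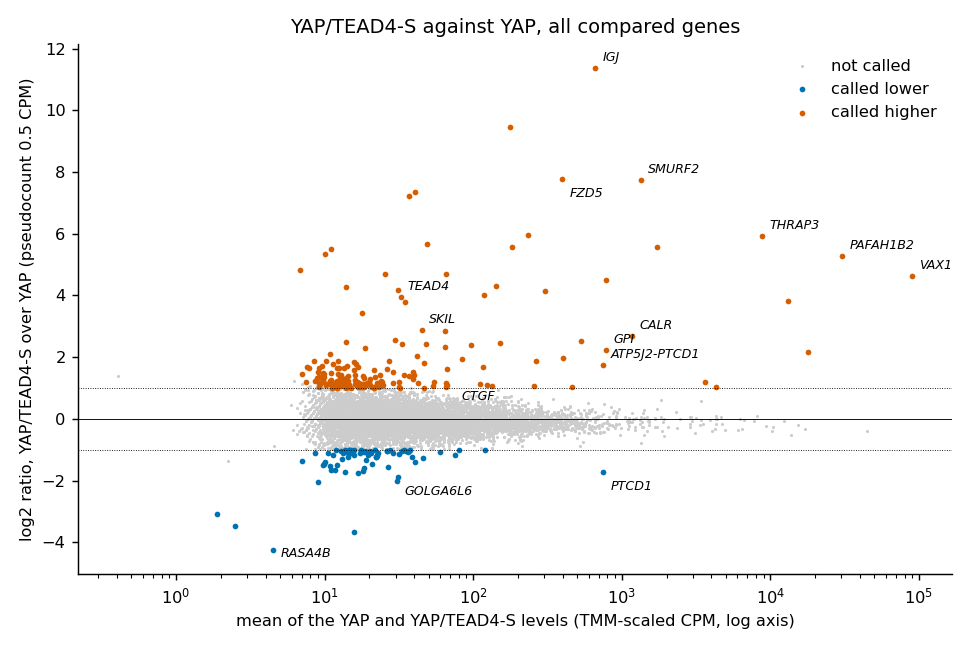
Log2 ratio of YAP/TEAD4-S to YAP (vertical axis, 0.5 CPM added) against the mean level in the 2 libraries (horizontal log axis, TMM-scaled CPM), 1 point per compared gene, with the 191 called higher in orange and the 72 called lower in blue. The highest ratios reach genes of every level up to VAX1, while the called lower genes, other than PTCD1, have mean levels under 200 CPM.

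The classic YAP/TEAD targets were close to their YAP levels. Of 34 listed, 25 were compared, of which 1 was called higher and none lower with TMM factors and none was called on library totals. Here and for each list below, the TMM shares over all compared genes are 2.3% higher and 0.867% lower. The median log2 ratio of the targets lay 0.30 above that of all genes, with members from −0.39 to 1.17 around it. CTGF, a secreted matricellular protein and the standard reporter gene of YAP activity, was at 81.8 with YAP/TEAD4-S against 68.1 with YAP, and 65.01 in the vector, 25.5 in the YAP/TEAD4-FL and 80.3 in the line labelled YAP/RBM4. Its level with YAP/TEAD4-S did not differ from that with YAP beyond counting error, with a ratio of 1.202 (0.939 to 1.55) and 0.962 on library totals, while the YAP/TEAD4-FL level was below all others. CYR61, its relative, was at 111 with YAP and 148 with YAP/TEAD4-S, a ratio of 1.32 (1.096 to 1.61) that is 1.06 on library totals. AXL, a receptor tyrosine kinase, had a ratio of 1.199 (1.01 to 1.42) that is 0.959 on library totals, AMOTL2, a YAP-binding scaffold, 1.22 (0.855 to 1.77), and PTPN14, a phosphatase that restrains YAP, 1.11 (0.943 to 1.3). The called member was GADD45A, a growth arrest and DNA damage gene, at 25.2 with YAP/TEAD4-S against 11.2 with YAP, and 15.8 in the vector, 22.2 in the YAP/TEAD4-FL and 35.9 in the line labelled YAP/RBM4. Its ratio was 2.25 (1.28 to 4.17), and its level with YAP was the lowest of the 5. ANKRD1, a nuclear ankyrin-repeat protein, was under the filter with 2 counts with YAP and 26 with YAP/TEAD4-S, a ratio of 7.54 (1.89 to 65.6).

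CTGF also shows what a TEAD-responsive promoter looks like. TEAD proteins bind the motif GGAATG, also read as CATTCC on the other strand. Both orientations were searched in the 250 bases before the start of each gene in the RefSeq promoter table (GRCh38.p14). The CTGF window holds 3 matches, between 169 and 95 bases before the start, and the stretch with them (chr6:131951450-131951553 of GRCh38.p14, minus strand) is shown with matches in capitals.
CTGF promoter: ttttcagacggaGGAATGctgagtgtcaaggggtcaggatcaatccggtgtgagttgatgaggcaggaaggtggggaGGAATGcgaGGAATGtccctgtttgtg
Of 27305 promoters 11.9% held a match, against 9.31% of the 5803 compared genes found in the table. Of the 135 higher genes found, 12 (8.89%) held a match, as did 5 of 43 lower genes (11.6%). None of either held more than 1, against only 37 (0.638%) of the 5803 compared genes found. Of the 17 targets found among the compared ones, 5 (29.4%) held a match. A match is a run of letters and not a measured binding site, and distal enhancers were not searched.

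The Hippo pathway itself, its kinases, scaffolds and TEAD partners, gave 1 call among 31 compared genes, TEAD4. The median of the list was 0.07 above that of all genes. The kinase genes STK4 and LATS2 had ratios of 1.05 (0.857 to 1.303) and 1.23 (0.745 to 2.09), LATS1 had 0.663 (0.387 to 1.14), and the scaffold gene NF2, which encodes merlin, had 1.07 (0.926 to 1.24). VGLL4, a TEAD partner that competes with YAP, was at 143 with YAP and 111 with YAP/TEAD4-S, a ratio of 0.773 (0.643 to 0.932). CSNK1E, a casein kinase of the circadian clock and of YAP turnover, had a ratio of 1.58 (1.23 to 2.06). On library totals TEAD3 was the lower call, at 0.464.

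Proliferation genes gave few calls. Of 40 compared genes of G2 and M phase, 1 was higher and 1 lower, 28 (70.0%) lay above the median of all genes, and the list median was 0.08 above it. SPAG5, a spindle protein, was at 6.31 with YAP and 15.4 with YAP/TEAD4-S, a ratio of 2.45 (1.16 to 5.76). CDCA5, which encodes the cohesion factor sororin, was at 18.3 with YAP/TEAD4-S against 37.2 with YAP, and 41.3 in the vector, 13.2 in the YAP/TEAD4-FL and 26.9 in the line labelled YAP/RBM4, a ratio of 0.492 (0.323 to 0.747). MELK, a mitotic kinase, had a ratio of 0.594 (0.459 to 0.77), short of 2-fold. Of 40 compared genes of DNA replication and the G1/S step, 2 were higher and none lower, and the median lay 0.07 above. RBL2, a pocket protein that represses E2F targets, had a ratio of 3.37 (1.77 to 7.097), and AKTIP, whose gene lies beside it and shares bases with it, 5.16 (3.53 to 7.802). CCNE2, a cyclin of S phase entry, had a ratio of 2.21 (1.12 to 4.77), and INTS8, on the opposite strand with overlapping exons, 3.93 (1.94 to 9.005). The column headers carry the words second strand, but no method states that strand was used in counting, and without it neighbours of this kind cannot be told apart. RRM2, a ribonucleotide reductase subunit, was on the lower side at 0.607 (0.447 to 0.824).

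Of 14 genes that the study names for proliferation and translation, 7 were compared and 7 were under the filter, and CCNE2, given above, was the only one called. The study named them from a comparison of all lines with the vector line, so the ratios to YAP given here are a different contrast. MYC had a ratio of 1.23 (0.751 to 2.06), CCNB1 of 1.16 (0.618 to 2.26), CENPF, a kinetochore protein, of 1.704 (0.949 to 3.22) and SF3A2, a splicing factor, of 1.51 (0.885 to 2.67), and all these intervals include 1. CSNK2A1, a casein kinase subunit, had 1.29 (0.561 to 3.21). Under the filter, CDCA8, a subunit of the chromosomal passenger complex, had 3 counts with YAP and 22 with YAP/TEAD4-S, a ratio of 4.25 (1.28 to 22.2). PCNA, the replication clamp, had 3 counts with YAP and 15 with YAP/TEAD4-S, a ratio of 2.9 (0.8204 to 15.6), and NDC80 6 counts with YAP and 18 with YAP/TEAD4-S, a ratio of 1.74 (0.662 to 5.35). E2F1 had 5 counts with YAP and 8 with YAP/TEAD4-S, a ratio of 0.928 (0.268 to 3.61), and SPDL1 had 6 counts with YAP and 12 with YAP/TEAD4-S.

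Of 27 compared genes of the epithelial–mesenchymal transition and adhesion, 2 were higher and none lower, with a median 0.08 above that of all genes. CDH2, the mesenchymal N-cadherin, was at 14.7 with YAP/TEAD4-S against 5.02 with YAP, and 11.7 in the vector, 11.5 in the YAP/TEAD4-FL and 11.6 in the line labelled YAP/RBM4. ITGAV, the integrin alpha V subunit, was at 16.6 with YAP/TEAD4-S against 5.61 with YAP, and 16.7 in the vector, 13.99 in the YAP/TEAD4-FL and 16.1 in the line labelled YAP/RBM4. Both were lowest with YAP, and their levels with YAP/TEAD4-S were close to those of the other 3 lines. Their ratios were 2.98 (1.31 to 7.94) and 2.97 (1.38 to 7.34), on 7 and 8 counts with YAP. VIM, the mesenchymal filament protein vimentin, was at 385 with YAP and 432 with YAP/TEAD4-S, a ratio of 1.12 (1.01 to 1.25) that is 0.898 on library totals, and CDH1, the epithelial E-cadherin, had 0.807 (0.661 to 0.986). ITGB1 had 1.23 (0.994 to 1.54), which is 0.988 on library totals, and ITGB2 had 3 counts with YAP and 1 with YAP/TEAD4-S. Among 29 matrix genes none was called, with LAMB2, a laminin chain gene, at 1.82 (1.11 to 3.09). The matrix median equalled that of all genes to within 0.01. Among 10 compared keratin and desmosome genes, none was higher and 2 were lower, against 0.867% of all compared genes. The 2 lower genes, DSC3 and DSG3, encode desmosomal cadherins. DSC3 was at 26.5 with YAP/TEAD4-S against 64.6 with YAP, and 54.2 in the vector, 58.9 in the YAP/TEAD4-FL and 48.1 in the line labelled YAP/RBM4, and DSG3 at 21.4 with YAP/TEAD4-S against 45.05 with YAP, and 25.2 in the vector, 17.3 in the YAP/TEAD4-FL and 30.5 in the line labelled YAP/RBM4. Their ratios were 0.4098 (0.294 to 0.569) and 0.4803 (0.327 to 0.702).

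TGF-beta and BMP signalling held the most calls of any list that was not taken from these libraries, 4 of 26 compared genes, all higher, against 2.3% of all genes. The list median lay only 0.07 above that of all genes. SMURF2, a ubiquitin ligase that marks TGF-beta receptors and SMAD proteins for destruction, was at 2668 with YAP/TEAD4-S against 12.03 with YAP, and 123 in the vector, 42.4 in the YAP/TEAD4-FL and 57.96 in the line labelled YAP/RBM4. The YAP/TEAD4-S level was far above all others, and the ratio to YAP was 224 (139.7 to 385), on 17 counts with YAP and 6563 with YAP/TEAD4-S. SKIL, a repressor of SMAD-driven transcription, was at 79.8 with YAP/TEAD4-S against 10.4 with YAP, and 32.9 in the vector, 18.1 in the YAP/TEAD4-FL and 18.95 in the line labelled YAP/RBM4, a ratio of 7.58 (4.48 to 13.8). FST, which encodes the activin antagonist follistatin, had a ratio of 3.87 (1.63 to 11.2), and TGFBR2, the type II receptor gene, 2.44 (1.203 to 5.45). For both, the vector level was near that with YAP/TEAD4-S, at 12.6 against 16.2 for FST and 20.9 against 17.1 for TGFBR2. On library totals 3 of the 4 were called, TGFBR2 being at 1.95.

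Ranked by the interval limit nearest 1, which covers counting error only, SMURF2, given above, was among the genes farthest above YAP, as was VAX1. VAX1, a homeobox regulator of the ventral forebrain and eye (chr10:118888032-118897812), was at 172395 with YAP/TEAD4-S against 6995 with YAP, and 62928 in the vector, 39358 in the YAP/TEAD4-FL and 53773 in the line labelled YAP/RBM4. Its YAP level was far below, and its YAP/TEAD4-S level above, those of the other 3 lines. The ratio to YAP was 24.6 (24.2 to 25.1), and that to vector 2.74 (2.72 to 2.76), with the limit on the assignment of its reads given above. That limit holds for every gene given here, SMURF2, SKIL, PAFAH1B2, THRAP3, SRGAP1, FZD5 and SLITRK2 included. PAFAH1B2, a catalytic subunit of platelet-activating factor acetylhydrolase, was at 59287 with YAP/TEAD4-S against 1524 with YAP, and 13567 in the vector, 6553 in the YAP/TEAD4-FL and 9651 in the line labelled YAP/RBM4. THRAP3, a protein of splicing and transcription complexes, was at 17284 with YAP/TEAD4-S against 283 with YAP, and 3751 in the vector, 1464 in the YAP/TEAD4-FL and 2503 in the line labelled YAP/RBM4. SRGAP1, a GTPase-activating protein of Slit–Robo signalling, was at 3359.6 with YAP/TEAD4-S against 69.8 with YAP, and 701 in the vector, 260.0 in the YAP/TEAD4-FL and 449 in the line labelled YAP/RBM4. All 4 genes had the same order of lines, with YAP lowest, then YAP/TEAD4-FL, the one labelled YAP/RBM4, vector and YAP/TEAD4-S. Their YAP/TEAD4-S to YAP ratios ran from 24.6 to 61.05, and their ratios to vector from 2.74 to 4.79. SMURF2 and SKIL, given above, had this order of lines too.

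FZD5, a Wnt receptor, had the same order of lines at 790.5 with YAP/TEAD4-S against 3.098 with YAP, and 110.5 in the vector, 50.5 in the YAP/TEAD4-FL and 73.6 in the line labelled YAP/RBM4, a ratio to YAP of 282 (110.0 to 1036) on 4 counts with YAP. LYPD4, a membrane-anchored protein of the Ly6 family, was at 6.96 with YAP and 459 with YAP/TEAD4-S, with 74.7 to 141 in the other 3 lines. SOX2-OT, a long non-coding RNA whose locus holds SOX2, was at 64.8 with YAP and 1494 with YAP/TEAD4-S, with 261 to 516 in the others, while SOX2 itself was at 0.701 with YAP and 0.406 with YAP/TEAD4-S. SLITRK2, a neuronal membrane protein, was at 1741 with YAP and 24551 with YAP/TEAD4-S, with 7555 to 12155 in the others. MLLT3, a subunit of a transcription elongation complex, was at 1.38 with YAP and 95.8 with YAP/TEAD4-S, and PHACTR3, a regulator of phosphatase and actin, at 4.43 with YAP and 127 with YAP/TEAD4-S. In these genes too YAP was the lowest line and YAP/TEAD4-S the highest. A further 4 genes in the same ranking had no count with YAP, so a ratio is only bounded, taking 3 counts in that library as the floor. IGJ, which encodes the joining chain of immunoglobulins, was at 1324 with YAP/TEAD4-S, at least 629.9-fold higher, with 1.58 to 24.3 in the other 3 lines. MSI1, an RNA-binding protein of neural progenitors, was at 351, at least 167-fold higher. LOC102723517 was at 80.5, at least 38.3-fold higher. SH3BGRL2 was at 73.7, at least 35.05-fold higher, with no count with YAP/TEAD4-FL or in the line labelled YAP/RBM4 and 1.53 in the vector line. SH3BGRL2 passed the filter only through the YAP/TEAD4-S library in which it was high. For IGJ, MSI1 and LOC102723517 the high YAP/TEAD4-S level also entered the mean that the filter used.

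**Figure D3:**
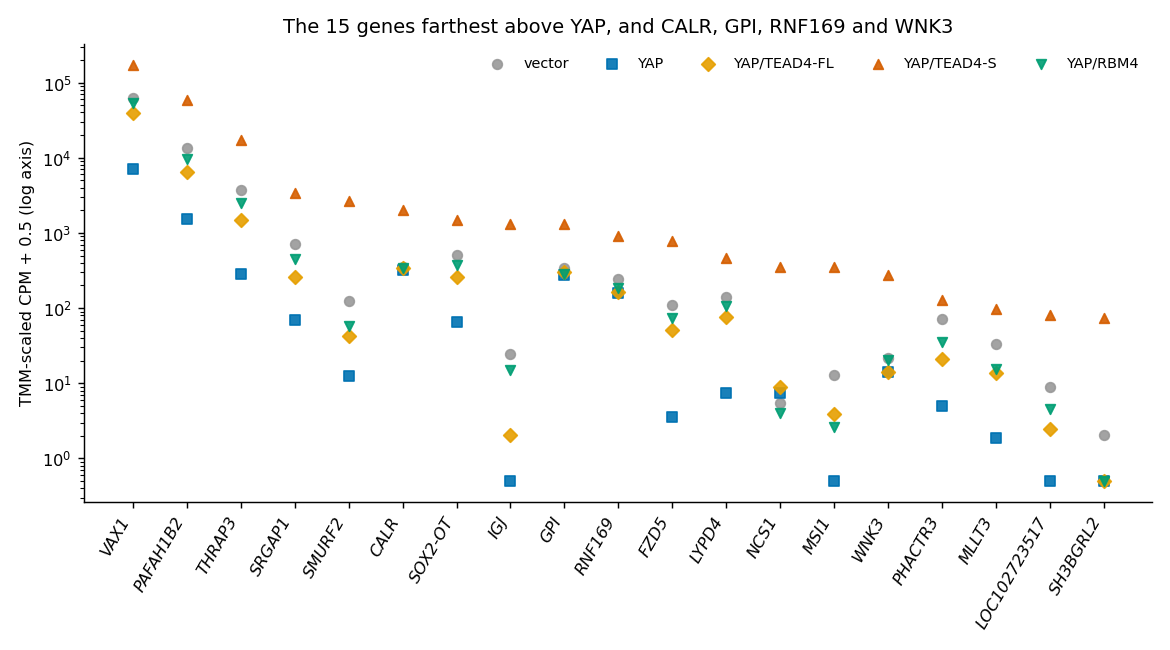
TMM-scaled CPM plus 0.5 (log axis) in the 5 libraries for the 15 genes farthest above YAP by the interval limit nearest 1, and for CALR, GPI, RNF169 and WNK3. YAP/TEAD4-S is the highest library for every gene drawn. VAX1, PAFAH1B2 and THRAP3 spread over all 5 libraries with YAP lowest, while the other 4 libraries of CALR and GPI lie together.

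Other genes were level in the other 4 lines and high with YAP/TEAD4-S. They are among the 32 that exceeded each other library, and those named here beyond the ranking were chosen after their values were seen. CALR, the endoplasmic reticulum chaperone calreticulin, was at 2029.5 with YAP/TEAD4-S against 318 with YAP, and 349 in the vector, 345 in the YAP/TEAD4-FL and 342 in the line labelled YAP/RBM4. GPI, the glycolytic enzyme glucose-6-phosphate isomerase, was at 1298 with YAP/TEAD4-S against 277 with YAP, and 338 in the vector, 302 in the YAP/TEAD4-FL and 286 in the line labelled YAP/RBM4. Their ratios to YAP were 6.38 (5.79 to 7.04) and 4.69 (4.22 to 5.22), on 454 and 395 counts with YAP, and their ratios to vector were 5.82 (5.39 to 6.29) and 3.84 (3.54 to 4.17). NCS1, a neuronal calcium sensor, was at 356 with YAP/TEAD4-S and between 3.49 and 8.48 in all other lines, a ratio to YAP of 50.8 (27.5 to 106). NCS1 too passed the filter only through the YAP/TEAD4-S library. WNK3, a kinase that regulates ion transport, was at 13.4 with YAP and 272 with YAP/TEAD4-S, with 13.6 to 21.1 in the others. RNF169, a ubiquitin ligase at DNA breaks, was at 159 with YAP and 908 with YAP/TEAD4-S, with 162 to 246 in the others. MMS22L, a factor of replication fork repair, was at 46.2 with YAP and 259 with YAP/TEAD4-S, with 51.02 to 65.1 in the others. EMX2, also a forebrain homeobox gene, had a ratio to YAP of 2.69 (1.82 to 4.11), and AEBP2, an accessory subunit of Polycomb repressive complex 2, 2.63 (1.54 to 4.74). LCOR, a nuclear receptor corepressor, had 21.2 (8.09 to 78.7) and PRICKLE2, a planar polarity protein, 35.4 (9.59 to 295), on 4 and 2 counts with YAP. Both were under the 14.0 counts that equal 10 CPM with YAP, and their high YAP/TEAD4-S level entered the mean that the filter used. NRP1, the semaphorin and VEGF co-receptor neuropilin, had 7.33 (4.74 to 11.9), and SEMA4D, a semaphorin, 3.09 (1.77 to 5.78).

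Several of the largest differences in either direction fell on genes that share exons with another gene or have a near-identical copy, where the split of reads is uncertain. PTCD1, a mitochondrial RNA-binding protein gene, was at 1148 with YAP and 346 with YAP/TEAD4-S, a ratio of 0.302 (0.277 to 0.328). ATP5J2-PTCD1, the read-through transcript of PTCD1 and its neighbour, was at 348 with YAP and 1156 with YAP/TEAD4-S, a ratio of 3.33 (3.02 to 3.67). The sum of the pair was 1496 with YAP and 1503 with YAP/TEAD4-S, a ratio of 1.005 (0.952 to 1.06), so only the division between the names differed. ANKHD1 had no count with YAP and 22.1 with YAP/TEAD4-S, and the read-through ANKHD1-EIF4EBP3 was at 29.6 with YAP and 1.85 with YAP/TEAD4-S, while their sum was 29.6 with YAP and 23.96 with YAP/TEAD4-S, a ratio of 0.815 (0.539 to 1.24). KIAA0408 was at 2.59 with YAP and 32.9 with YAP/TEAD4-S and the overlapping SOGA3 at 48.99 with YAP and 12.9 with YAP/TEAD4-S, and their sum was 51.6 with YAP and 45.8 with YAP/TEAD4-S, a ratio of 0.886 (0.655 to 1.204). EIF3CL, a copy of the initiation factor gene EIF3C, had no count with YAP and 20.02 with YAP/TEAD4-S, and the sum of EIF3C and EIF3CL was 96.7 with YAP and 119.9 with YAP/TEAD4-S, a ratio of 1.24 (1.01 to 1.53).

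The same held for BLOC1S5, called lower at 0.456 (0.2999 to 0.689), and its read-through EEF1E1-BLOC1S5, called higher at 3.48 (1.63 to 8.52), which with EEF1E1 summed to 46.4 with YAP and 37.4 with YAP/TEAD4-S, a ratio of 0.809 (0.583 to 1.13). RASA4B, a copy of the RAS regulator RASA4, had 13 counts with YAP and none with YAP/TEAD4-S, at least 7.41-fold lower, and with RASA4 it summed to 113 with YAP and 97.3 with YAP/TEAD4-S, a ratio of 0.861 (0.702 to 1.06). RAD54B, a DNA repair helicase gene, had no count with YAP and 13.6 with YAP/TEAD4-S, whereas FSBP, which shares its exons, had 17.5 with YAP and no count in any other line, and their sum was 17.5 with YAP and 13.6 with YAP/TEAD4-S, a ratio of 0.766 (0.442 to 1.34). CHURC1-FNTB was at least 4.098-fold lower, and with CHURC1 and FNTB it summed to 83.1 with YAP and 70.1 with YAP/TEAD4-S, a ratio of 0.838 (0.6598 to 1.07). SMN2, a copy of SMN1, had 4 counts with YAP and 0 with YAP/TEAD4-S, and the sum of the pair was 2.80 with YAP and 6.10 with YAP/TEAD4-S, a ratio of 2.18 (0.693 to 9.003). None of the sums, other than that of EIF3C and EIF3CL, had an interval that excluded 1. Of the called genes found in the annotation, 21 of 176 higher (11.9%) and 17 of 63 lower (27.0%) have over 10% of their exon bases in exons of another gene on the same strand, against 8.97% of all compared genes. The sets were chosen after their values were seen.

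**Figure D4:**
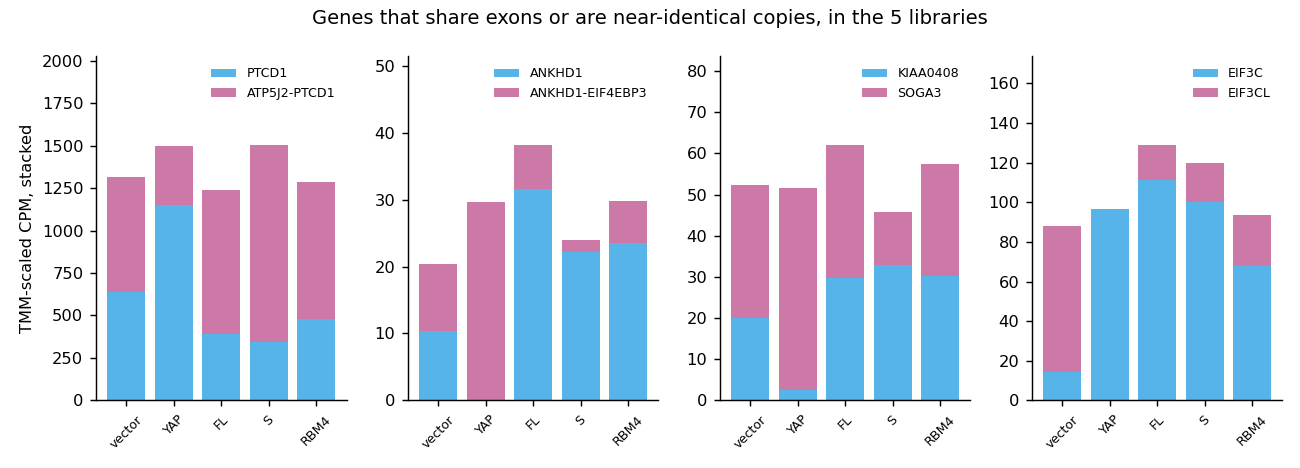
TMM-scaled CPM (vertical axes, from 0) of 4 pairs of genes that share exons or are near-identical copies, stacked, in the 5 libraries (FL, S and RBM4 stand for the libraries whose labels name these with YAP). For PTCD1 and ATP5J2-PTCD1 the colours exchange between YAP and YAP/TEAD4-S while the stack stays at 1496 and 1503 CPM.

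The lower genes described next share no exon bases with another gene on the same strand. GOLGA6L6, of a multicopy golgin family, was at 11.99 with YAP/TEAD4-S against 49.8 with YAP, and 33 in the vector, 32.8 in the YAP/TEAD4-FL and 37.6 in the line labelled YAP/RBM4, a ratio of 0.237 (0.148 to 0.3697). AANAT, the key enzyme of melatonin synthesis, was at 8.22 with YAP/TEAD4-S against 27.9 with YAP, and 28.8 in the vector, 8.97 in the YAP/TEAD4-FL and 14.7 in the line labelled YAP/RBM4, a ratio of 0.29 (0.161 to 0.508). MRGPRX3, a G protein-coupled receptor, had a ratio of 0.282 (0.151 to 0.508) and was lower with YAP/TEAD4-S than in each other library, where it ranged from 16.3 to 26.2. For AANAT, by contrast, the YAP/TEAD4-FL level was as low as that with YAP/TEAD4-S. MYH7B, a myosin heavy chain, had a ratio of 0.221 (0.0846 to 0.519), and the membrane protein genes TMEM45B and TMEM68 had 0.336 (0.212 to 0.524) and 0.343 (0.203 to 0.569). Long non-coding RNAs had a median below that of all genes. Of 526 compared, 3 were called higher and 10 lower (1.90%, against 0.867% of all genes), and their median was −0.14 relative to that of all genes, while 6563 protein-coding genes had 168 higher, 51 lower and a median 0.02 above it. MEG3, an imprinted RNA, was at 23.7 with YAP and 11.5 with YAP/TEAD4-S, LINC-PINT, a p53-induced RNA, at 27.6 with YAP and 10.6 with YAP/TEAD4-S and LINC01116 at 43.7 with YAP and 19.4 with YAP/TEAD4-S, with ratios of 0.478 (0.279 to 0.812), 0.387 (0.226 to 0.651) and 0.449 (0.301 to 0.665). These RNAs were chosen after their values were seen.

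Housekeeping gene groups were shifted upward by small amounts that few single members showed. Of 78 compared cytosolic ribosomal protein genes, 75 (96.2%) lay above the median of all genes, the list median was 0.31 above it, and 1 gene, RPS13, was called higher at 2.08 (1.2 to 3.801). RPSA had a ratio of 1.85 (1.33 to 2.6) and RPL38 of 1.69 (1.23 to 2.34). Of 46 translation factor genes, 39 (84.8%) lay above, with a median of 0.33 and no call, and EIF3L, EIF3D and EIF3E, subunits of initiation factor 3, had ratios of 1.99 (1.13 to 3.73), 1.71 (1.02 to 3) and 1.56 (1.01 to 2.48). Of 49 SR protein and hnRNP genes, which encode splicing regulators, 42 (85.7%) lay above, with a median of 0.33 and 1 call, TRA2B at 2.204 (1.08 to 4.96). Of 32 chaperone genes, 27 (84.4%) lay above, with a median of 0.29 and no call, HSP90B1 being at 1.37 (1.17 to 1.603). Of 47 respiratory chain genes, 37 (78.7%) lay above, with a median of 0.26 and 2 higher calls, NDUFB9 at 2.42 (1.27 to 4.99) and UQCRFS1 at 2.32 (1.05 to 5.83). Of 35 proteasome genes, 25 (71.4%) lay above, and 1 was higher, PSMF1, an inhibitor of the proteasome, at 2.32 (1.18 to 4.98), with a median of 0.12. On library totals the shift of −0.32 turns the uncentred medians of these lists to about 0 or below, and none of these single calls remained. The medians of all genes in 6 ranges of mean CPM lay between −0.06 and 0.07 of the overall one.

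Of 37 ATF4 target and amino acid supply genes, 32 (86.5%) lay above the median of all genes, the largest median shift of the lists, 0.36, and 2 were called higher. PSAT1, an enzyme of serine synthesis, was at 15.04 with YAP/TEAD4-S against 4.21 with YAP, and 17.7 in the vector, 12.8 in the YAP/TEAD4-FL and 22.6 in the line labelled YAP/RBM4, a ratio of 3.58 (1.496 to 10.4), and SLC38A2, a glutamine and alanine transporter, had 2.25 (1.31 to 4.09). For PSAT1 the YAP level was the lowest and that with YAP/TEAD4-S lay within the range of the other lines. Of 23 NRF2 targets, 19 (82.6%) lay above, with a median of 0.23 and no call. KEAP1, the NRF2 inhibitor, was at 2.05 (1.09 to 4.14), short of a call with 0.5 CPM added. Of 32 glycolysis and hypoxia genes, 1 was higher, GPI, and the median was 0.24, with SLC2A3, a glucose transporter, at 1.67 (1.095 to 2.59). Of 25 cholesterol and fatty acid synthesis genes, 2 were higher, IDI1, an isomerase of the mevalonate pathway, at 3.29 (1.603 to 7.59), and SREBF1, a master regulator of lipid synthesis, at 2.36 (1.299 to 4.59), while the list median was −0.05 and FADS2, a fatty acid desaturase, was on the lower side at 0.626 (0.543 to 0.722). Of 18 genes of the EGF receptor family, its ligands and MET, 1 was higher, LRIG1, a negative regulator of the receptors, at 2.06 (1.24 to 3.57), with a median of 0.26, and EGFR was at 1.14 (0.717 to 1.85).

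Inflammatory and immune genes gave few calls as well. Of 23 complement and inflammatory genes, none was higher and 1 was lower, CFB, complement factor B, at 9.53 with YAP/TEAD4-S against 19.6 with YAP, and 99 in the vector, 6.23 in the YAP/TEAD4-FL and 13.1 in the line labelled YAP/RBM4, a ratio of 0.476 (0.262 to 0.858). Exons of other genes cover over 10% of its exon bases. ICAM1, an adhesion receptor of leukocytes, was at 87.9 with YAP and 49.3 with YAP/TEAD4-S, a ratio of 0.561 (0.434 to 0.727). The cytokine genes IL6 and CSF3 had ratios of 0.57 (0.388 to 0.836) and 0.502 (0.303 to 0.828), with intervals below 1 but differences short of a call, and on library totals 5 genes of the list were lower. The list median was −0.04, near that of all genes. For CFB, IL6, CSF3 and ICAM1 the vector level was the highest of the 5. Of 23 interferon and antigen presentation genes, 1 was higher, TAP2, the peptide transporter, at 2.39 (1.08 to 5.996), with a median of −0.12, while PARP9 was at 0.591 (0.394 to 0.888) and IFITM3 at 1.52 (1.16 to 2.01). Of 23 AP-1 and immediate early genes none was called, FOS being at 0.681 (0.376 to 1.24) and the median at 0.04. Of 28 apoptosis genes, 1 was lower, TNFRSF10A, a TRAIL receptor, at 0.487 (0.315 to 0.749), with a median of −0.09.

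The remaining lists held at most 1 call, other than the list that the study had made from these libraries. Of 46 actin and focal adhesion genes none was called, with a median of 0.14 and TPM2, a tropomyosin, at 1.72 (1.16 to 2.62). Of 23 lysosome and autophagy genes, 1 was higher, GABARAP, an autophagosome protein, at 2.16 (1.09 to 4.66), with a median of −0.05. Of 34 chromatin regulator genes none was called, with a median of 0.09, and SMARCC1, a SWI/SNF subunit, was at 1.99 (1.13 to 3.73). Only 4 of 58 replication-dependent histone genes were compared, and none was called. The study grouped 429 genes from these libraries, described against the vector line as YAP-activated, raised further by TEAD4-FL and lowered by TEAD4-S or RBM4. Its baseline was thus not the YAP line used here. Of these genes, 166 were compared. With TMM factors 24 were higher and none lower, against 2.3% and 0.867% of all compared genes. On library totals 4 were higher and 1 lower, against 1.07% and 4.39%. The list median was 0.23. Because that list was drawn from the same libraries, it is no independent evidence of a direction. DDX11, a DNA helicase of sister chromatid cohesion, was at 13.7 with YAP/TEAD4-S against 3.37 with YAP, and 6.903 in the vector, 19.1 in the YAP/TEAD4-FL and 12.5 in the line labelled YAP/RBM4, a ratio of 3.94 (1.53 to 12.9), and ELL2, an elongation factor, had 2.74 (1.41 to 5.83). In both the YAP level was the lowest of the 5 lines.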

How the data were processed

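RNA of 5 H157 lines was sequenced, 1 library per line, and the 2 libraries labelled YAP/TEAD4-S and YAP were compared. Reads had been mapped by the authors to hg19 through RSEM with Bowtie2 (version 2.2.5, per the submitters' processing notes), with fragments modelled at 75 bases (SD 10). The values deposited are expected counts per gene, estimates that need not be whole numbers. The RSEM version and the annotation are not given in the sources used here. The column headers carry the words second strand, but no method states the strand setting. The authors' own call of differential expression (EBSeq) was not repeated.

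Counts were rounded, and trimmed-mean (TMM) factors and DESeq2 size factors came from edgeR 4.0.16 and DESeq2 1.42.0 under R 4.3.3, which ran no test. Ratios on TMM-scaled CPM were given exact 95% Clopper-Pearson intervals from the counts of both libraries, which cover counting error only. The rule for a call needed a log2 ratio, with 0.5 CPM added, of at least 1 in size and an interval excluding 1, among genes whose CPM on library totals averaged 10 or more across all 5. A gene without counts was set to a floor of 3 counts in that library. The genes named are the constructs and their paralogs, those the paper names for the sequencing, the 15 highest and 15 lowest by interval limit, and up to 4 members of each list, described in part. Of 25343 symbols, 21536 were found in GENCODE on hg19. The members and lists were chosen with earlier results of these data known. Alternatives changed the scaling, the added CPM, the filter and the call rule. Scripts were tested on simulated data. Python 3.11.15, pandas 2.3.3 and scipy 1.17.1 were used.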

Additional observations from a re-analysis of the deposited data

Results flagged for a closer look

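NBPF20, of the multicopy neuroblastoma breakpoint family, was called in opposite directions with the 2 TEAD4 isoforms against the same YAP library. Its log2 ratio of YAP/TEAD4-S to YAP was −3.09, with 5 counts with YAP and none with YAP/TEAD4-S, at least 3.09-fold lower. Its ratio of YAP/TEAD4-FL to YAP was 4.89 (95% interval 1.94 to 15.8), and its level was 3.95 in the vector line and 24.3 in the line labelled YAP/RBM4. The difference between the isoforms was not tested, since each line has 1 library. Members of this family share near-identical sequence, so the split of reads among them is uncertain. No other named gene was called in opposite directions.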

How the results depend on the processing

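With 1 library per line no replicate could be left out. No paired analysis was possible because no test was run. The limit for a move was the counting interval for single genes, a factor of 1.5 for counts of genes and the interval given below for lists. Under 12 alternatives, 286 recomputed values moved by less than this limit and 19 by more. The log2 ratios of TEAD4 and YAP1 were among the former under every alternative that was run on them. The counts of 191 higher and 72 lower genes moved most. Library totals gave 89 higher and 365 lower genes, and totals without VAX1 gave 146 lower. A pseudocount of 2 CPM gave 47 lower. A filter at a mean of 1 CPM gave 421 higher and 196 lower, no filter 422 and 206, and a filter at 50 CPM 40 and 6. A 1.5-fold rule gave 409 higher and 418 lower, and an interval wholly beyond 2-fold 53 and 6. Centred list medians stayed within the interval of their members in 264 of 269 values. At a filter of 1 CPM the median of complement and inflammatory genes was −0.52 and that of the genes the study grouped was 0.40. Without a filter those of ribosomal protein genes and of markers of other cell types were 0.23 and −0.37. At 50 CPM that of respiratory chain genes was 0.41. A floor of 3 counts is 2.10 CPM in the YAP and 1.22 CPM in the YAP/TEAD4-S library, which limits ratios of genes near these levels.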

Other observations

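Calls depended on the level of a gene. Of 2378 compared genes with a mean of 10 to 20 CPM, 100 (4.21%) were higher and 39 (1.64%) lower with YAP/TEAD4-S than with YAP. Of 909 genes with 100 to 200 CPM, 7 (0.770%) were higher and 1 (0.110%) lower. Of the 87 genes above 1000 CPM, 7 (8.05%) were higher and none lower. Symbols absent from the annotation, 1073 of those compared, gave 15 higher and 9 lower calls. Of the called genes found in the annotation, 28 of 176 higher (15.9%) and 9 of 63 lower (14.3%) overlap an antisense exon along more than 10% of their own exon bases, against 20.9% of all compared genes.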
